A study of Mus musculus with 13 samples.

Results

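The genes described here are the mouse Hnrnp genes, which encode heterogeneous nuclear ribonucleoproteins (hnRNPs), and the Ddx and Dhx genes, which encode DEAD-box and DEAH-box RNA helicases. They were chosen by symbol: names starting with Hnrnp, or with Ddx or Dhx followed by a digit, leaving out 2 pseudogenes, 1 antisense transcript and 2 further genes set aside by the choice. This gave 71 of the 55536 genes in the files, 20 Hnrnp, 36 Ddx and 15 Dhx. Their messages were measured by poly(A)-selected RNA-seq in primary bone marrow neutrophils of wild-type mice, in 2 libraries of cells exposed to RNase A outside the cell for 10 min at 37 °C (exRNaseA) and 2 libraries of mock-treated cells (mock). The comparison asks whether an enzyme that digests RNA on the cell surface changes the messages inside the cell. The series also holds small RNA libraries of neutrophils and of the myeloid progenitor line HOXB8, which estradiol keeps from differentiating, without replicates. The RNA-seq libraries are named biological replicates, but whether they are from different mice is not stated, so p-values measure the spread between these 4 libraries.

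hnRNPs coat new transcripts in the nucleus and steer their splicing, export, stability and translation. DEAD-box and DEAH-box helicases use ATP to open RNA duplexes and to strip proteins from RNA at nearly every step from transcription and splicing to ribosome assembly, export, translation and decay. Mature neutrophils carry a condensed, lobed nucleus and little RNA, while the precursors that share the bone marrow with them are still building ribosomes and granule proteins.

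The exRNaseA libraries held 20661683 and 22870322 expected counts (reads assigned to genes by RSEM), and the mock libraries 23722494 and 20798960. The 16 neutrophil markers summed to 275656 to 288762 TPM (a level scaled for transcript length and library size) in exRNaseA and to 287562 to 288424 TPM in mock, so the markers of the labelled cell type were abundant in every library. Markers of other bone marrow cells were present as well, at 1822 to 1833 TPM in exRNaseA and 1824 to 1836 in mock for 8 B cell markers, and at 4766 to 4778 in exRNaseA and 4566 to 4706 in mock for 9 erythroid markers. Genes of proliferation summed to 1126 to 1129 TPM in exRNaseA and to 1072 to 1074 in mock, and stem and progenitor markers to 27.9 to 28.7 TPM in exRNaseA and 22.5 to 24.7 in mock. Monocyte and macrophage markers summed to 1019 to 1038 TPM in exRNaseA and 1022 to 1039 in mock, and T and NK cell markers to 42.2 to 42.8 in exRNaseA and 41.2 to 42.3 in mock. None of the 80 markers was at 0 in all 4 libraries. Megakaryocyte markers summed to 16.95 to 19.58 TPM in exRNaseA and 19.25 to 21.83 in mock. Eosinophil, basophil and mast cell markers summed to 437 to 462 in exRNaseA and 459 to 465 in mock. Both exRNaseA sums lay above both mock sums for the proliferation, stem and erythroid lists. Of all tested genes taken singly, 24.8% lay above in the same way in TPM, and no share was taken over sums of genes. Of the 78 tested genes of all 9 marker lists edgeR and DESeq2 called 0. In edgeR 15 (19.2%, against 6.35% of all tested genes) had an unadjusted p under 0.05, 11 of them neutrophil markers. The median log2 change of the 16 neutrophil markers was -0.05. In DESeq2 7 of the marker genes had an unadjusted p under 0.05, and no share of all genes was taken for that count. The part of these cells in the levels below was not tested.

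The Hnrnp genes as a group were among the abundant messages of these cells, and no gene of either family passed the test for a difference between the treatments. All 20 Hnrnp genes had a mean over the 4 libraries of at least 10 TPM, and 16 of them at least 100 TPM. Of the 51 Ddx and Dhx genes 33 reached 10 TPM and 6 reached 100 TPM. At least 10 TPM was reached by 74.6% of the 71 genes, against 51.1% of all 14184 genes tested and 13.1% of all genes in the files. The median level was 235 TPM for the Hnrnp genes and 18.4 TPM for the Ddx and Dhx genes, and 4 helicase genes (Ddx4, Ddx25, Ddx43 and Ddx3y) lay under 1 TPM. Summed over the Hnrnp genes, the exRNaseA libraries held 6272 and 6338 TPM and the mock libraries 6134 and 6158 TPM. The Ddx and Dhx genes summed to 3392 and 3455 TPM in exRNaseA and to 3364 and 3366 TPM in mock. Both sums were higher in both exRNaseA libraries, by a ratio of 1.03 and 1.02, while the median gene of the whole test was 0.03 higher on the log2 scale in TPM. A bulk library cannot tell fewer cells of a type from less RNA per cell.

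**Figure D1:**
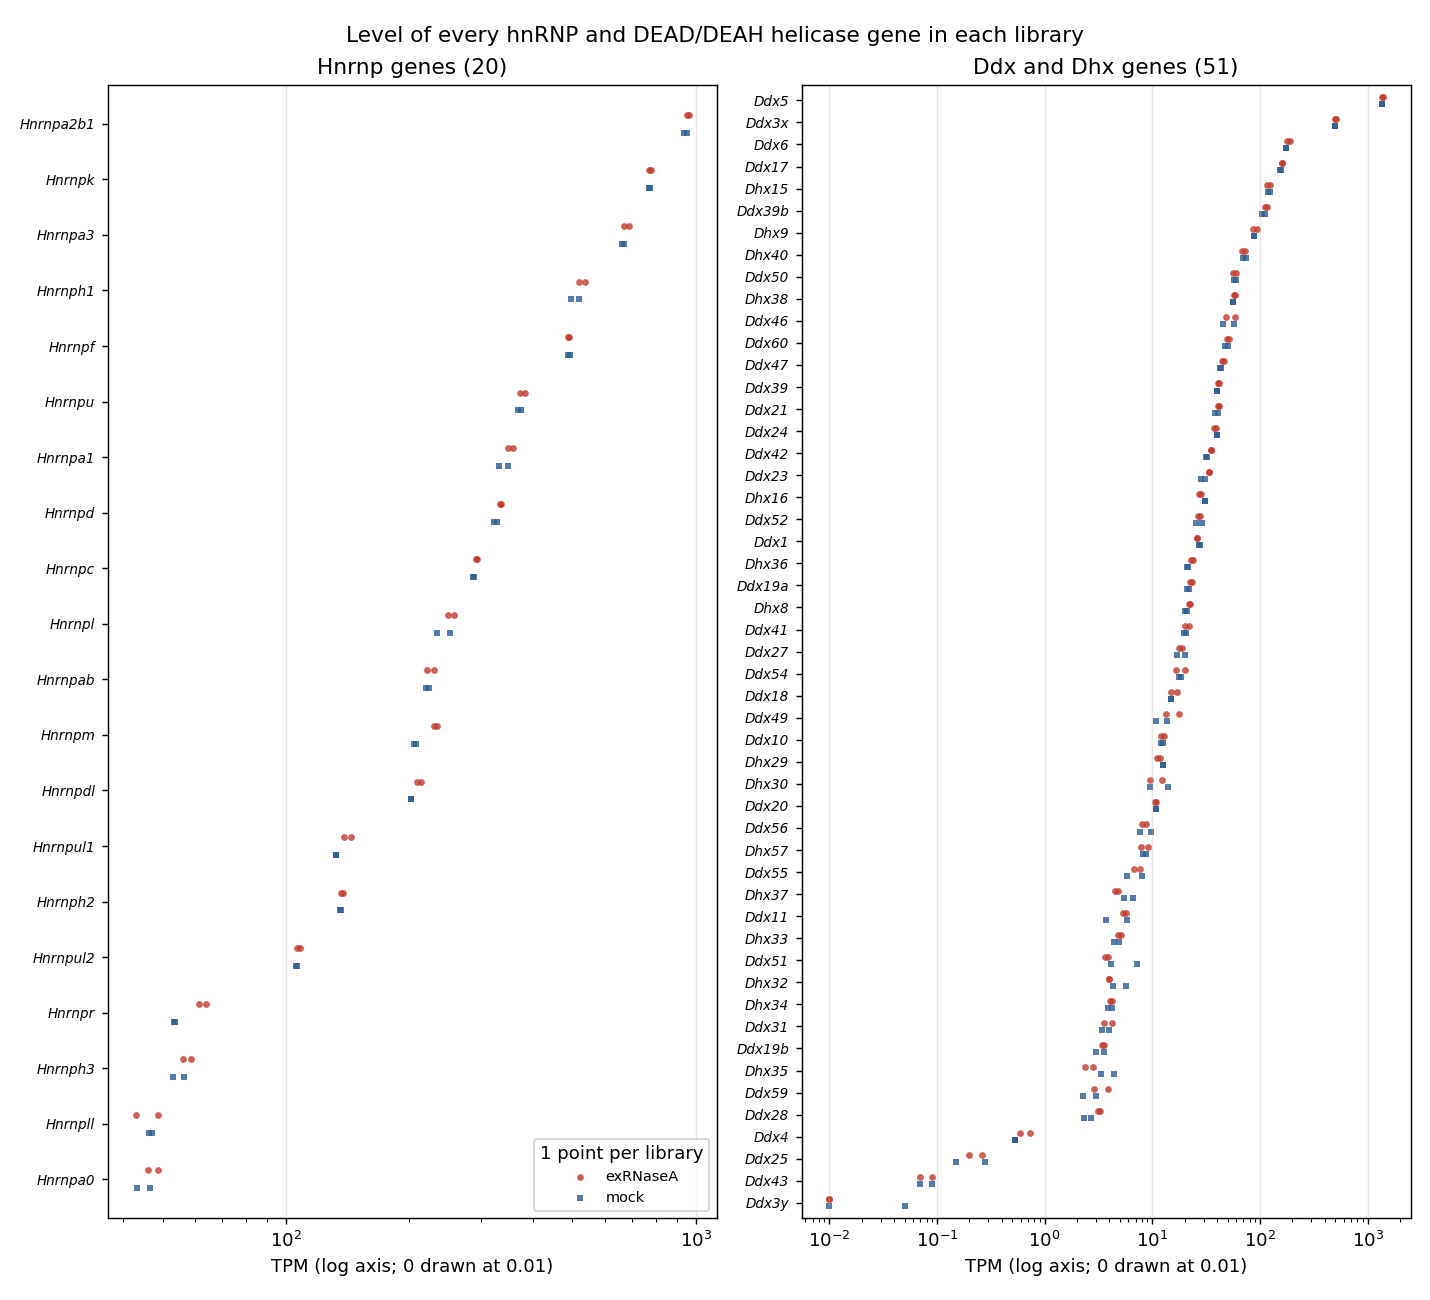
Each point is 1 library, exRNaseA as red circles above mock as blue squares, with the level in TPM on a log axis for the 20 Hnrnp genes (left) and the 51 Ddx and Dhx genes (right), in order of mean level. Ddx5, at 1355 and 1384 TPM in exRNaseA and 1351 and 1358 in mock, is the highest, and the 2 treatments lie close together for nearly every gene over 10 TPM.

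The hnRNPs of A/B and D type, which carry paired RNA-recognition motifs and include the classic splicing repressors, held the largest share of Hnrnp message. Hnrnpa2b1, which encodes a splicing and RNA-transport factor, had 963 and 952 TPM in exRNaseA and 935 and 950 TPM in mock. Hnrnpa3 had 670.2 and 689 TPM in exRNaseA and 662 and 667 in mock, and Hnrnpa1, the gene of a well studied splicing repressor, 348 and 359 in exRNaseA and 332 and 347 in mock. In all 3 of these genes both exRNaseA libraries lay above both mock libraries in TPM, for Hnrnpa1 only at 347.75 against 347.41. On the count scale Hnrnpa3 lay below and the other 2 overlapped. Of the 7 genes of the type, 5 lay above in TPM, against 24.8% of all tested genes. In CPM 2 of the 7 lay above, against 17.7%, and 1 below, against 18%. Hnrnpa0 was the least abundant of the type, at 46.1 and 48.8 TPM in exRNaseA and 46.5 and 43.3 in mock, so that Hnrnpa3 exceeded it 14.3 ± 0.285-fold in exRNaseA and 14.8 ± 0.818-fold in mock (SD, n = 2 each). Hnrnpd, whose product (AUF1) binds AU-rich elements that mark short-lived messages, had 333 and 335 TPM in exRNaseA and 321 and 328 in mock. Of its relatives, Hnrnpdl had 208 and 213 TPM in exRNaseA and 202 in each mock library, and Hnrnpab averaged 225 ± 6.07 TPM in exRNaseA and 221 ± 2.82 in mock (SD, n = 2 each).

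The remaining hnRNPs bind different sequences and spanned a similar range of levels. Hnrnpk, whose KH-domain product binds C-rich RNA and DNA, had 769 and 777 TPM in exRNaseA and 772 and 769 in mock, and the libraries overlapped. Of the F/H type, which binds runs of G, Hnrnph1 had 538 and 519 TPM in exRNaseA and 519 and 497 in mock, and Hnrnpf averaged 489.8 ± 2.88 TPM in exRNaseA and 490.3 ± 4.94 in mock. Hnrnpu, the gene of a nuclear scaffold protein, averaged 378 ± 7.45 TPM in exRNaseA and 372 ± 5.33 in mock. Hnrnpc, whose product binds U-rich stretches in introns, had 291 and 293 TPM in exRNaseA and 286 and 288 in mock, and Hnrnpl, a binder of CA repeats, 249 and 257 in exRNaseA and 233 and 251 in mock. Among neighbours in the order of Hnrnp levels, 13 of 19 pairs had ranges over the 4 libraries that did not overlap, so the order was resolved at its top (Hnrnpa2b1, Hnrnpk, Hnrnpa3, Hnrnph1, Hnrnpf and Hnrnpu) and not between such pairs as Hnrnpa1 and Hnrnpd. Lower in the order lay Hnrnpul1 (141 ± 3.63 in exRNaseA, 133 ± 0.0636 in mock), Hnrnph2 (137 ± 1.01 in exRNaseA, 136 ± 0.403 in mock) and Hnrnpul2 (107 ± 1.43 in exRNaseA, 106 ± 0.643 in mock). Hnrnph3 and Hnrnpll followed at 57.3 ± 1.79 and 45.8 ± 4.07 in exRNaseA and 54.7 ± 2.26 and 46.8 ± 0.552 in mock. The 5 most abundant genes held 54.4% of the Hnrnp sum in exRNaseA and 54.9% in mock.

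A single gene dominated the helicases. Ddx5 (chr11:106780355-106789185, mm10), whose product p68 works in splicing, microRNA processing and as a partner of transcription factors, held 40.0% of the summed TPM of the Ddx and Dhx genes in exRNaseA and 40.3% in mock. It ranked 56 among all genes in the files by mean TPM. Its close relative Ddx17 had 159.4 and 159.5 TPM in exRNaseA and 154 and 158 in mock, and the ratio of Ddx5 to Ddx17 was 8.59 ± 0.125 in exRNaseA and 8.68 ± 0.108 in mock. Dhx9, the gene of RNA helicase A, averaged 90.02 ± 4.74 TPM in exRNaseA and 87.5 ± 0.460 in mock. Of the helicases of translation and decay, Ddx3x, a factor for translation of structured messages, had 501 and 512 TPM in exRNaseA and 501 and 499 in mock, with overlapping libraries. Ddx6, which acts in decapping and in P-bodies, had 180.1 and 188.4 TPM in exRNaseA and 174.4 and 175.9 in mock, higher in both exRNaseA libraries. Dhx36, which opens G-quadruplexes, and Dhx29, of translation initiation, averaged 23.4 ± 0.721 and 11.3 ± 0.530 TPM in exRNaseA and 21.4 ± 0.304 and 12.6 ± 0.106 in mock. Ddx3y, the copy of Ddx3x on the Y chromosome, had 0 counts in both exRNaseA libraries and 0 and 3 counts in mock, so that no fold was taken.

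The 9 helicases of the spliceosome summed to 366 and 384 TPM in exRNaseA and 371 and 359.6 in mock. Dhx15, which takes spent spliceosomes apart, led them with 117 and 125 TPM in exRNaseA and 119 and 123 in mock, followed by Dhx38, for the second step of splicing, at 57.8 ± 0.785 TPM in exRNaseA and 56.1 ± 0.707 in mock. Ddx46, which acts when the U2 particle joins the branch point, varied within each treatment, at 48.8 and 58.0 TPM in exRNaseA and 56.9 and 45.3 in mock. The other 6 genes of the spliceosome ran from Ddx42, part of the U2 particle, at 35.2 ± 0.212 TPM in exRNaseA and 31.9 ± 0.757 in mock, down to Dhx35 at 2.61 ± 0.304 in exRNaseA and 3.89 ± 0.785 in mock. Among them, Ddx23, which hands the splice site from U1 to U6, had 33.6 and 33.6 TPM in exRNaseA and 31.2 and 28.3 in mock, higher in both exRNaseA libraries in TPM and in CPM. The 4 mRNA export helicases summed to 184 and 180.1 TPM in exRNaseA and 177 and 167 in mock. Ddx39b (UAP56), which loads export factors on spliced messages, had 117 and 112 TPM in exRNaseA and 111 and 104 in mock. It exceeded its near copy Ddx39 2.76 ± 0.0412-fold in exRNaseA and 2.70 ± 0.0912-fold in mock. Ddx19a and Ddx19b, which release messages at the nuclear pore, stood in a ratio of 6.59 ± 0.365 in exRNaseA and 6.49 ± 0.563 in mock.

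Ribosome biogenesis was the largest role by number, with 16 genes, and together they held less than Ddx3x alone. They summed to 329 and 319 TPM in exRNaseA and to 316 and 326 in mock. Ddx50, a nucleolar helicase, led them at 58.6 ± 2.71 TPM in exRNaseA and 58.7 ± 2.07 in mock, and Ddx47 came next at 45.2 ± 1.72 in exRNaseA and 43.4 ± 0.665 in mock. Ddx21, the nucleolar relative of Ddx50, and Ddx24 followed at 41.3 ± 0.672 and 38.6 ± 1.12 TPM in exRNaseA and 39.5 ± 1.68 and 40.1 ± 0.141 in mock. Ddx24 was lower in both exRNaseA libraries in TPM and in CPM, with a log2 change of -0.08 (interval -0.17 to 0.01). Ddx60, a gene linked to the interferon response, had 49.8 and 51.5 TPM in exRNaseA and 47.1 and 49.99 in mock. The mitochondrial helicases Dhx30 and Ddx28 summed to 15.5 and 12.8 TPM in exRNaseA and 12.3 and 16.4 in mock. Ddx4, Ddx25 and Ddx43, known from the germ line, summed to 1.00 and 0.940 TPM in exRNaseA and 0.900 and 0.750 in mock, and Ddx4 (the vasa gene) was read from 28 and 25 counts in exRNaseA and 23 and 20 in mock.

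**Figure D2:**
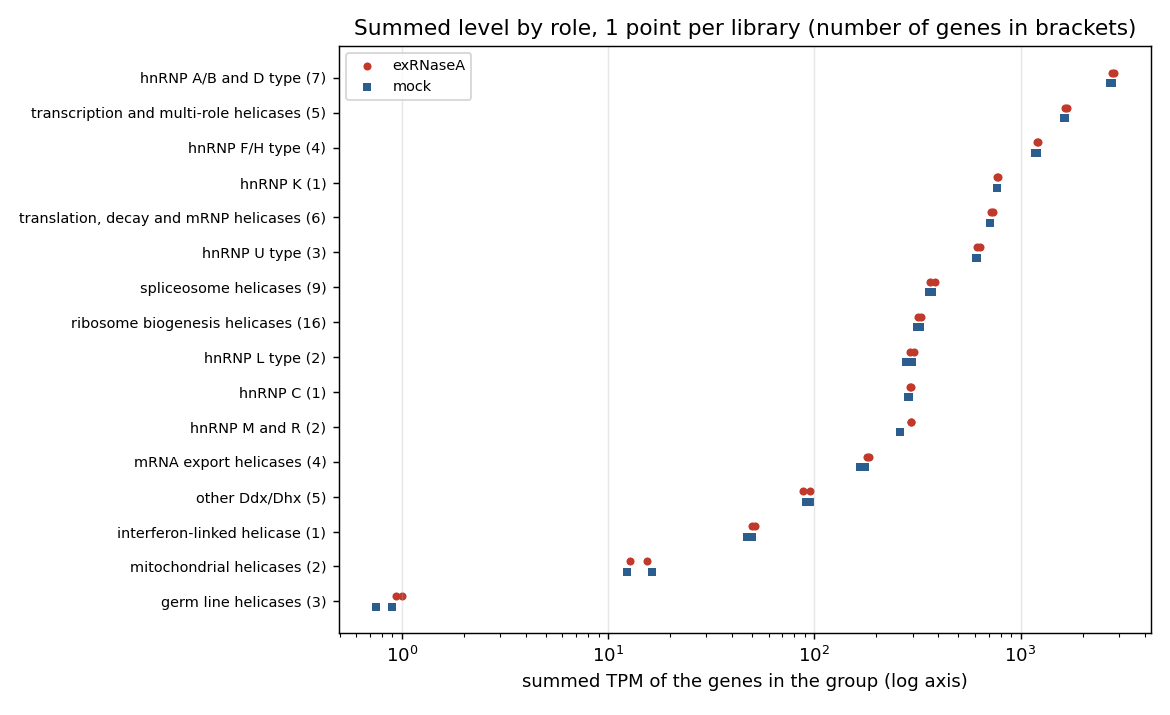
Summed TPM of the genes of each role on a log axis, 1 point per library, with exRNaseA as red circles above mock as blue squares and the number of genes in brackets. The A/B and D type hnRNPs are highest, at 2789.9 and 2827 TPM in exRNaseA and 2719 and 2762 in mock, and the 3 germ line helicases lowest, at or below 1.00 TPM.

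The Hnrnp, Ddx and Dhx messages were tested for a change within a fit of all 14184 genes that passed a filter on low counts. Of the 71 genes 69 passed it, all but Ddx43 and Ddx3y. By the quasi-likelihood test of edgeR, adjusted after Benjamini and Hochberg at 0.05, 0 of these 69 were called, against 13 of all 14184 tested genes (0.0917%, 10 lower and 3 higher in exRNaseA). At an unadjusted p under 0.05 stood 3 of the 69, a share of 4.35%, against a background of 6.35% (901 genes). DESeq2 also called 0 of the Hnrnp, Ddx and Dhx genes, against 9 of all 20760 genes with an adjusted p (0.0434%). In DESeq2 1 of them had an unadjusted p under 0.05, and no share of all genes was taken for that count. The lowest adjusted p of any of the 69 genes in edgeR was 0.628, and 0.289 over all alternative settings tried.

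The 3 genes with an unadjusted p under 0.05 were higher in exRNaseA. Ddx49 (chr8:70292866-70302471, mm10), a helicase gene of ribosome biogenesis, had 261 and 314 expected counts in exRNaseA and 228 and 234 in mock, a log2 change of 0.33 (SE 0.11, 95% interval 0.09 to 0.56, adjusted p = 0.628, edgeR). CPM are counts scaled to library size and a normalization factor (TMM). In CPM the Ddx49 libraries did not overlap, at 12.6 and 13.7 CPM in exRNaseA and 9.69 and 11.3 in mock. In TPM those of Ddx49 did, at 17.7 and 13.5 in exRNaseA and 10.8 and 13.8 in mock. Its span overlaps that of Homer3, and its expected counts have fractions, so some of its reads matched more than 1 gene. Which genes these were was not tested. Hnrnpd stood at 0.07 (SE 0.03, interval 0.01 to 0.13, adjusted p = 0.731, edgeR) and Hnrnpul1, a relative of Hnrnpu, at 0.06 (SE 0.03, interval 0.00 to 0.12, adjusted p = 0.756, edgeR). Hnrnpul1 had 6671 and 7590 counts in exRNaseA and 7281 and 6506 in mock, that is 321 and 329.9 CPM in exRNaseA and 309 and 315 in mock.

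The measured differences of the other genes were small. The 69 log2 changes ran from -0.18 (Dhx35, of the spliceosome) to 0.33 (Ddx49), with a median of 0.00 against -0.00 for all tested genes, and 37 of them were positive. The median size of the change was 0.03 for the 69 genes and 0.07 for all tested genes. Among genes of at least 100 TPM it was 0.02 for the 22 Hnrnp, Ddx and Dhx genes and 0.03 for all 1286, a smaller gap than over all levels. The 95% interval of the change lay within 0.2 on the log2 scale on either side of 0 for 49 of 69 genes (71.0%), against 36.1% of all tested genes, and within 0.5 for 65 of 69 (94.2%), against 67.2%. The median level was 39.3 TPM for the 71 genes and 10.5 for all tested genes, and no share of intervals matched for level was taken. All 20 Hnrnp genes had an interval within 0.2, and 29 of the 49 tested helicase genes did. For Ddx5 the change was -0.04 (SE 0.02, interval -0.08 to 0.00), for Hnrnpa2b1 0.00 (SE 0.02, interval -0.04 to 0.05) and for Ddx3x -0.02 (SE 0.02, interval -0.06 to 0.02). Wide intervals were left at the genes with few counts: -0.05 to 0.67 for Ddx28 of the mitochondrial ribosome, -0.49 to 0.14 for Dhx35, -0.38 to 0.17 for Ddx31 of ribosome biogenesis, -0.42 to 1.06 for Ddx4 and -0.75 to 0.85 for Ddx25. Ddx11, a DNA helicase of sister chromatid cohesion, stood at 0.22 (SE 0.11, interval -0.00 to 0.45).

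**Figure D3:**
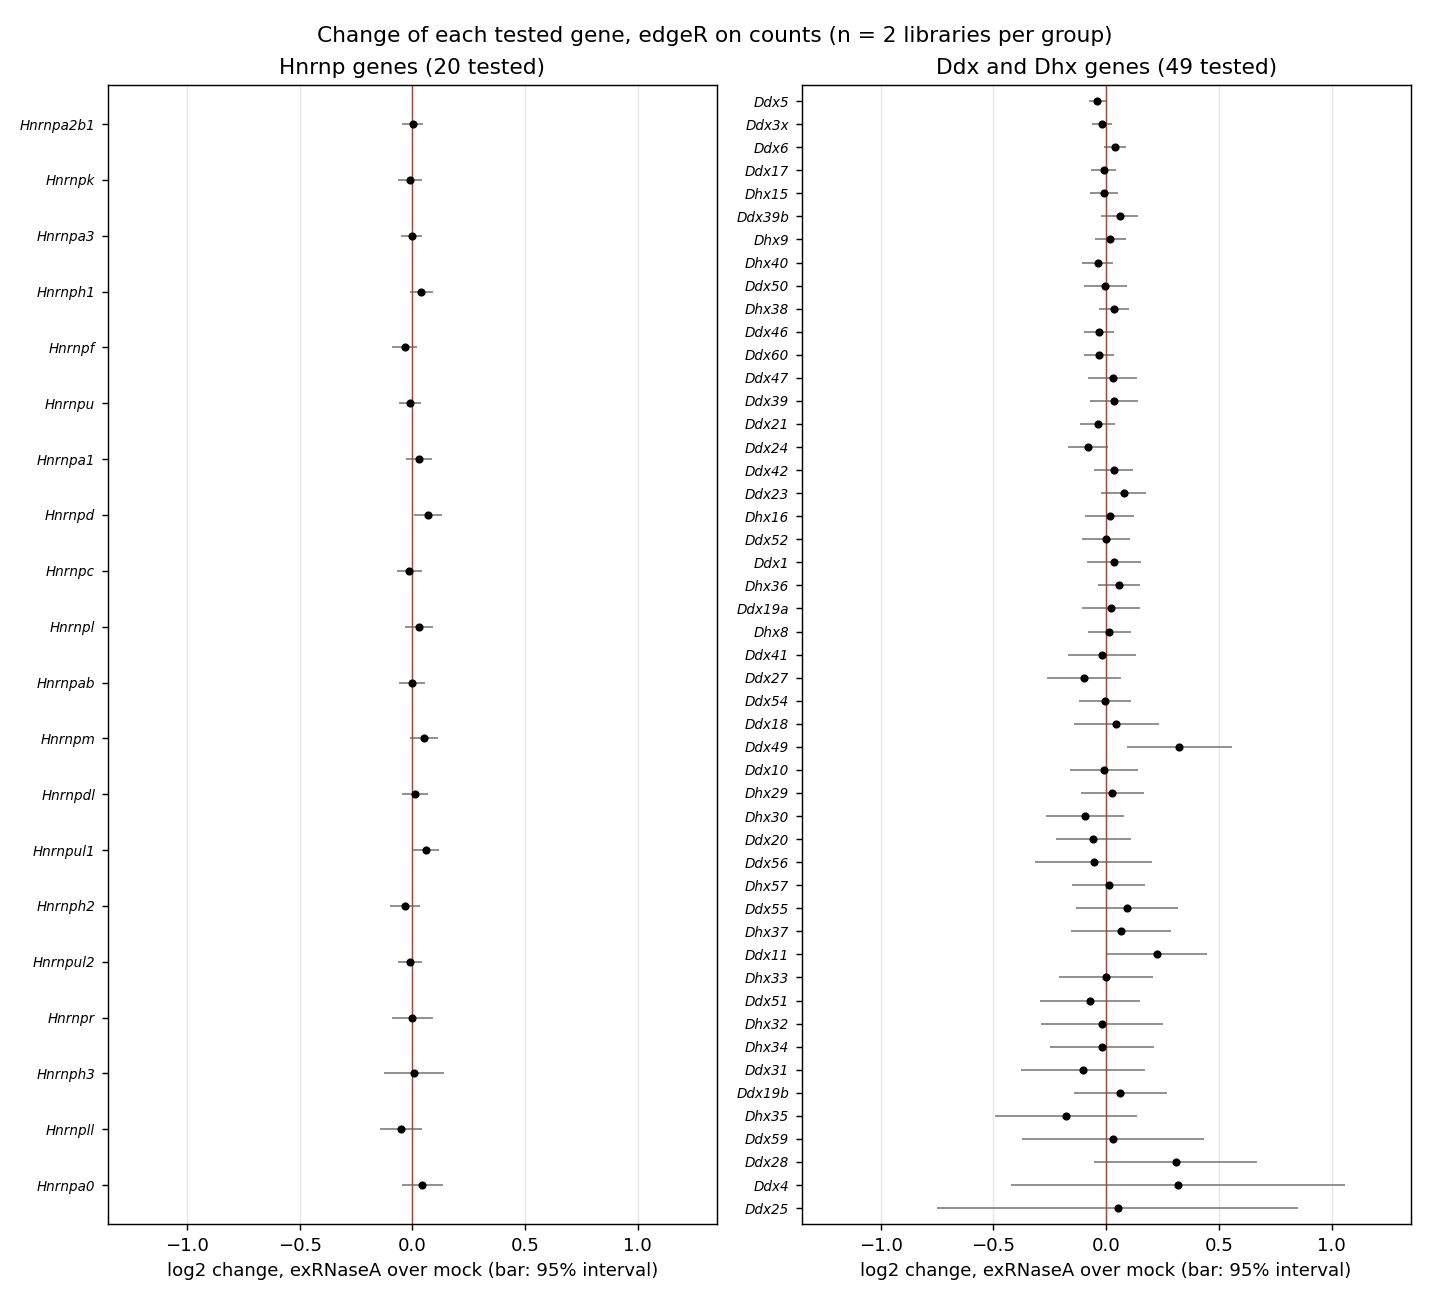
The log2 change, exRNaseA over mock, of each tested gene from edgeR on counts of 2 libraries per treatment, with bars for the 95% interval and genes in order of level from the top. All 20 Hnrnp intervals (left) lie within 0.2 of 0, and those of the helicases (right) widen down the order to -0.75 to 0.85 for Ddx25.

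**Figure D4:**
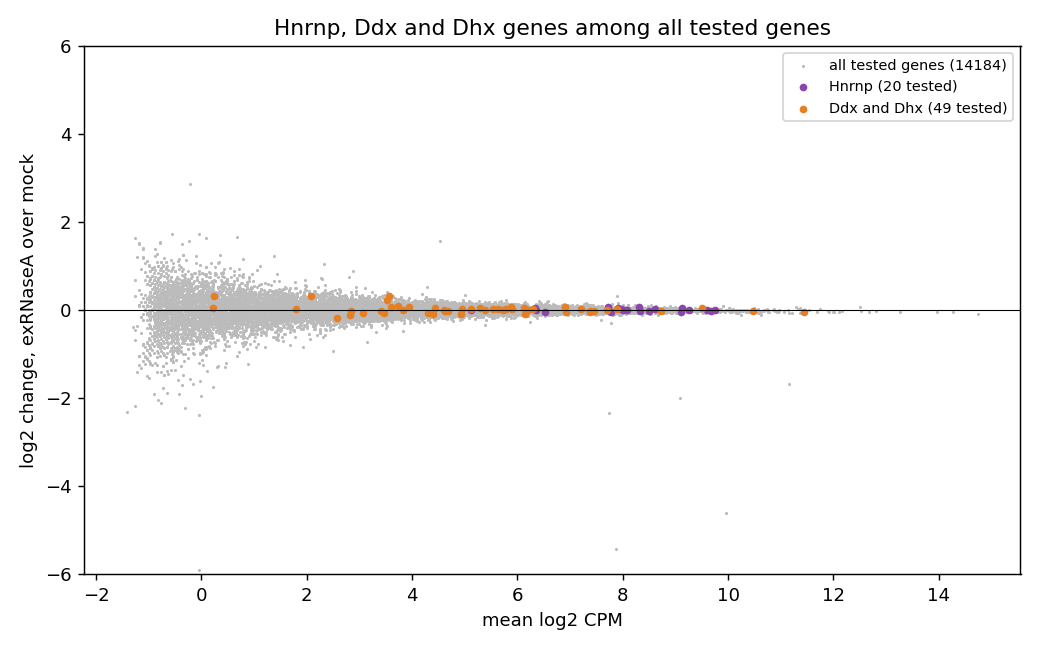
Log2 change, exRNaseA over mock, against mean log2 CPM for all 14184 tested genes (grey), with the 20 Hnrnp genes in purple and the 49 Ddx and Dhx genes in orange. The coloured points run from -0.18 to 0.33 and stay inside the grey cloud at their level, away from the few grey points far below 0.

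Levels in TPM and counts gave different pictures of the same genes. In TPM both exRNaseA libraries lay above both mock libraries for 24 of the 69 tested genes (34.8%), against a background of 24.8%, and below them for 8 (11.6%), against 11.3%. In CPM, which are not scaled to length, they lay above for 12 genes (17.4%), against 17.7%, and below for 13 (18.8%), against 18%. Of the 24 genes higher in TPM, 9 were higher in CPM too and 2 (Hnrnpa3 and Hnrnpc) were lower. For these 2 the effective length changed by -0.01% and -0.37%. The 2 scales differ in normalization: the median log2 ratio of all tested genes was 0.03 in TPM and -0.0002 in CPM. The TPM value also divides by an effective length that RSEM takes from the mix of transcripts it assigns in each library. That length moved with some of the differences in TPM. Of the 8 genes lower in TPM, 7 had a longer effective length in both exRNaseA libraries, by 11.2% for Ddx1 up to 38.7% for Dhx37, and Ddx24 did not. Of the 24 genes higher in TPM, 8 had a shorter effective length in both exRNaseA libraries and 4 a longer one. No share of all tested genes was taken for these lengths. Because TPM divides by the length, genes picked as lower in TPM tend to have longer lengths by arithmetic alone.

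Examples of both kinds stood among the hnRNPs and the helicases; they were picked after their values were seen. Hnrnpr, known for carrying beta-actin mRNA in motor axons, had 63.9 and 61.3 TPM in exRNaseA and 53.4 and 53.5 in mock, with a change in effective length of -12.6%. Its CPM were 83.1 and 81.1 in exRNaseA and 79.4 and 84.9 in mock, and its edgeR log2 change was 0.00 (interval -0.09 to 0.09). Hnrnpm, a splicing regulator, had 229 and 233 TPM in exRNaseA and 206 and 208 in mock at a change in effective length of -5.14%, and 241 and 249 CPM in exRNaseA against 237 and 235 in mock (edgeR log2 change 0.05, interval -0.01 to 0.11). In the opposite direction, Ddx51 of ribosome biogenesis had 3.66 and 3.88 TPM in exRNaseA and 7.23 and 4.17 in mock, with an effective length 36.6% longer in exRNaseA, while its CPM were 10.7 and 10.7 in exRNaseA and 11.2 and 11.3 in mock. Dhx16, of the first step of splicing, had 28.6 and 27.0 TPM in exRNaseA and 30.8 and 30.9 in mock, and 48.2 and 45.7 CPM in exRNaseA and 46.9 and 45.9 in mock. Whether transcript use changed in these genes was not tested, since the files used here hold gene-level values.

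**Figure D5:**
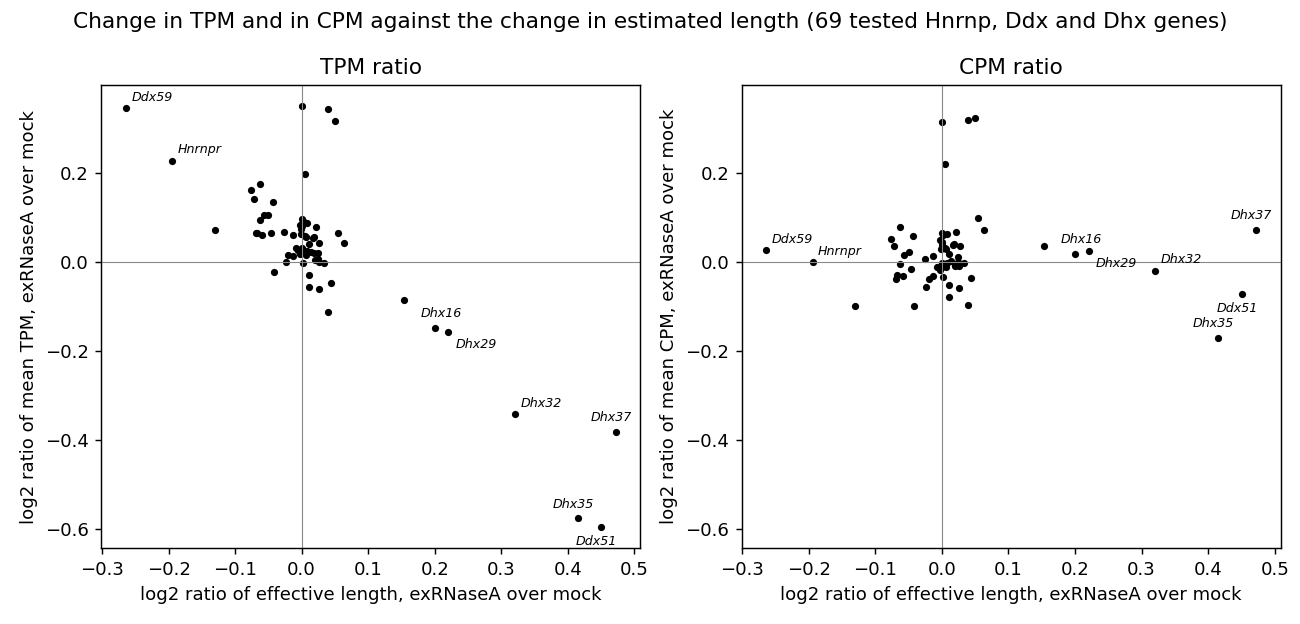
For the 69 tested genes, the log2 ratio of mean TPM (left) and of mean CPM (right), exRNaseA over mock, against the log2 ratio of effective length on the same axis scales. The TPM ratio is lower where length is longer, from Ddx59 and Hnrnpr at the left to Dhx37 and Ddx51 at the right, while the CPM ratio of the named genes stays within 0.2 of 0.

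Of 11 pairs of related genes with a ratio in all 4 libraries, 10 had ratios that overlapped between the treatments, Hnrnph1 to Hnrnph2 (3.86 ± 0.0726 in exRNaseA, 3.75 ± 0.125 in mock), Ddx50 to Ddx21 (1.42 ± 0.0425 in exRNaseA, 1.49 ± 0.116 in mock) and Hnrnpl to Hnrnpll, its lymphocyte relative (5.54 ± 0.363 in exRNaseA, 5.18 ± 0.209 in mock), among them. In the remaining pair, Hnrnpu to Hnrnpul1, the ratios did not overlap, at 2.67 ± 0.0160 in exRNaseA and 2.81 ± 0.0389 in mock (SD, n = 2 each). Of single genes, 24.8% of all tested lay higher and 11.3% lower in TPM in both exRNaseA libraries. No share was taken over other pairs, so the count of overlaps has no background of its own. RSEM can split reads that match several genes. In 23 of the 71 genes (32.4%) at least 1 library had an expected count over 0.005 from a whole number, against 30.8% of all tested genes. The 2 families differed: the share was 65% for Hnrnp (13 genes) and 19.6% for Ddx and Dhx (10 genes). How far this bears on the Hnrnp levels was not tested. Ddx39b had whole counts in all 4 libraries.

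Other genes of RNA handling were counted from the same fit. In 4 lists of 77 genes, which cover hnRNP-type proteins with other names, SR splicing proteins, RNA helicases with other names and helicase partners, 75 were tested and edgeR called 0 of them, with 6 (8%) at an unadjusted p under 0.05 and a median log2 change of 0.01. DESeq2 called 0 of them, with 2 at an unadjusted p under 0.05, for which no share of all genes was taken. The most abundant genes of the 4 lists, Pcbp2 (poly(C)-binding), Srsf5 (an SR protein), Eif4a2 (a translation initiation helicase) and Eif4g2 (a translation initiation scaffold), had log2 changes of -0.00, -0.03, -0.03 and -0.02. SR proteins summed to 2868 and 2924 TPM in exRNaseA and 2848 and 2900 in mock.

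The promoters were read from RefSeq (GRCm38.p6) to see what these genes share in sequence beside their names. Of the 71 genes 64 had an entry, with 84 windows of 250 bases before to 50 after an annotated start. The CG dinucleotide, which is frequent in the CpG islands of housekeeping genes, occurred a median of 25 times per window, against 20 in the 12520 windows of tested genes and 7 in all 32851 windows. The ETS-type motif CCGGAAG, read on both strands, was in 29.8% of the windows (36.8% for Ddx and Dhx, 14.8% for Hnrnp), against 17.7% of windows of tested genes and 8.86% of all. CCAAT was in 51.2% (38.1% of tested, 37.4% of all) and the GC box GGGCGG in 64.3% (59.9% of tested, 35.7% of all), while TATAAA was in 8.33% (7.24% of tested, 13.6% of all). A match is a string of letters and not a site. The 120 bases before a start are printed for the 3 most abundant Hnrnp genes and the 3 most abundant helicase genes with an entry. Ddx6, which lay above Ddx17 in mean TPM, had no entry. Capitals mark the CCAAT, GC box and ETS-type letters on either strand, and the strand given is that of the gene.
Hnrnpa2b1 (chr6:51469895-51470014, minus strand): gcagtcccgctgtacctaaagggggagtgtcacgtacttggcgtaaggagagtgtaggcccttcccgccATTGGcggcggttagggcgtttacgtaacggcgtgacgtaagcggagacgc
Hnrnpk (chr13:58402118-58402237, minus strand): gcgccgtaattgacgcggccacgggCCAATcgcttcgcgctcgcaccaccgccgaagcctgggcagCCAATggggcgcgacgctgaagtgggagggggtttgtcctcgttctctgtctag
Hnrnpa3 (chr2:75659139-75659258, plus strand): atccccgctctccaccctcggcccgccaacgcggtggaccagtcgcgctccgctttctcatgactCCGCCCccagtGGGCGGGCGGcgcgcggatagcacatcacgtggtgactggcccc
Ddx5 (chr11:106789186-106789305, minus strand): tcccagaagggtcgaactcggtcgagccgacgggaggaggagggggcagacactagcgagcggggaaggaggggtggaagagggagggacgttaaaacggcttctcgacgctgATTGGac
Ddx3x (chrX:13280902-13281021, plus strand): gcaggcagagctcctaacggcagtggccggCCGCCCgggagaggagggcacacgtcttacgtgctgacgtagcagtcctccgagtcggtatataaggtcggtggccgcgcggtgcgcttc
Ddx17 (chr15:79546742-79546861, minus strand): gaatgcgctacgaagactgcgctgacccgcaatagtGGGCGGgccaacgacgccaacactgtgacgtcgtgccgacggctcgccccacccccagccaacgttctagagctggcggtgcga
Among these 6 stretches that of Hnrnpk holds 2 CCAAT, that of Hnrnpa3 holds 3 GC boxes (2 of which share letters), and that of Ddx5 holds 1 CCAAT next to its start. CCGGAAG is in none of the 6.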

How the data were processed

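Poly(A)-selected RNA of mouse bone marrow neutrophils (exRNaseA and mock, 2 libraries each) was the main measurement, with groups taken from the treatment label. The deposited expected counts, TPM and FPKM come from RSEM, per the file headers; the submitters' processing notes name STAR 2.4.2a, RSEM 1.3.3 and mm10. The strand setting is not given in the sources used here, nor is the annotation release. Effective lengths per gene are RSEM's too, per the file headers. Expected counts were rounded, edgeR 4.0.16 (R 4.3.3) kept 14184 genes by filterByExpr, scaled them by TMM (factors 0.993 to 1.01) and ran the quasi-likelihood F test with Benjamini-Hochberg adjustment over all of them (biological coefficient of variation 0.0244). Intervals of log2 changes came from the test's F value, or from a limma fit of the same counts where F was close to 0, as for Hnrnpr. CPM are these counts scaled to library size multiplied by the TMM factor. Members, lists and roles were chosen with earlier results of these data known.

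The rule named every called gene, the 10 Hnrnp and 14 Ddx or Dhx genes highest in TPM, the 5 with the smallest p, the 3 with the largest change per direction, 11 close pairs and Ddx3x with Ddx3y, and of each other list the most abundant gene and that with the smallest p. Other genes were named after their values were seen, and some genes under the rule are not reported here. DESeq2 1.42.0 and limma 3.58.1 served as alternatives, limma on log2(TPM + 0.5) for genes of mean TPM 1 or more. Each fit was tested on simulated data. For small RNA the deposited table gives RPM, the reads of each unique sequence scaled to its library. Whole reads were recovered: between 97.1% and 99.99% of values per library lay within 0.01 of a multiple of 1 read. With 1 library per group the count test could not be run on them, so it called no sequences, and intervals (95%, exact Poisson) cover counting error only. Gene spans and promoters came from RefSeq (GRCm38.p6, which is mm10).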

Additional observations from a re-analysis of the deposited data

Results flagged for a closer look

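The small RNA libraries, which no comparison above uses, held 16 sequences placed by the deposited table inside the spans of 13 of the 71 genes (mm10), of 3226 sequences the table assigns to the genome as a whole. The libraries hold RNA of under 300 nt as an input, RNA captured on streptavidin after biotin was attached to labelled sialic acid, or RNA captured on wheat germ agglutinin (WGA), a sialic acid and GlcNAc binding lectin. Values above the input of the same kind of cell, and above the limit that a count of 0 allows there (3 reads), are given here in RPM (reads scaled to library size). Each kind of library was made once, so there is no replicate check. Of the 16 sequences 9 were seen in 1 library only, 7 were shorter than 19 bases, and 12 of 14 with a known gene strand lay on the strand of the gene. Each of these 9 had 112 reads (Ddx39) or more in its library, so the table may list only sequences with many reads. If so, a sequence is listed because it was high in some library, and its excess over input there is no independent evidence. This holds for sequences seen in several libraries too: the Hnrnpab sequence of 28 bases had 235 reads in neutrophil WGA. It had 18 reads in biotin with PNGase F of differentiated cells and 3 in neutrophil input. Capture libraries were also deeper, with 9922702 implied reads in neutrophil WGA and 3110323 in neutrophil input. All listed sequences together summed to 393166 RPM in input of undifferentiated cells, against 918968 in biotin and 905696 in WGA. In differentiated cells they summed to 702012 in input and 934102 to 967083 in capture libraries. In neutrophils they summed to 882954 in input and 899560 in WGA. What these unlike shares add to an excess over input in HOXB8 cells was not tested. Short reads can match more than 1 place, and whether these do was not tested.

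Of the sequences above input in more than 1 library, the 3 of under 30 bases are printed, the first 2 on the strand opposite to the gene and the last on its strand.
Ddx5 (chr11:106782225-106782247): gtccttcatgcctcctctacccc
Hnrnpf (chr6:117907527-117907543): ctccgggcgggcgtggg
Hnrnpab (chr11:51606536-51606563): atgtcggacgcggctgaggagcagccca

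The Ddx5 sequence stood at 39.4 RPM (95% Poisson interval 35.6 to 43.5) in neutrophil WGA and 2.25 (0.905 to 4.64) in neutrophil input. In undifferentiated HOXB8 cells it stood at 5.02 RPM in biotin and 16.1 in WGA, with 3.74 in input. In differentiated HOXB8 cells it had 6.09 RPM in biotin, 6.51 in biotin treated with PNGase F, which removes N-glycans, 0 in WGA and 1.84 in input. The biotin interval of undifferentiated cells (3.43 to 7.08) overlaps that of their input (2.04 to 6.27), and the neutrophil intervals do not overlap.

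The Hnrnpf sequence was the highest, at 28.4 RPM in biotin and 50.5 in WGA of undifferentiated HOXB8 cells and 1.49 in biotin and 5.58 in biotin with PNGase F of differentiated cells, with 0 in both inputs. The Hnrnpab sequence of 28 bases had 2.79 RPM in biotin with PNGase F of differentiated cells and 23.7 in neutrophil WGA, with 0 in the input of differentiated cells and 0.965 in neutrophil input. A sequence of 31 bases that begins 3 bases before it had 6.12 RPM in biotin and 2.17 in WGA of undifferentiated cells and 9.30 in biotin with PNGase F of differentiated cells, with 0 in both inputs.

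The other sequences exceeded input in 1 library each, which a listing limited to sequences with many reads would favour. In WGA of differentiated cells these were at Ddx3x (41.7 RPM), Hnrnpd (26.8), Ddx46 (22.8), Hnrnpk (21.1), Dhx15 (20.5), Ddx23 (15.8) and Hnrnpm (14.5). In WGA of undifferentiated cells they were a further one at Hnrnpab (20.6 RPM) and one at Hnrnpa0 (20.5). In neutrophil WGA they were 2 at Hnrnpa2b1 (12.4 and 9.98 RPM) and 1 at Ddx39 (11.3).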

How the results depend on the processing

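edgeR called 13 genes of all tested, and this count moved more than 1.5-fold in several settings. It was 149 with no filter on low counts, 7 with at least 10 CPM in 2 libraries, 7 in limma on log2 TPM with a pseudocount of 0.5 and 7 with 1, 3 without the 5 genes that carry rRNA sequence, and 5 with the effective length as an offset, an alternative chosen after seeing the data. Leaving out 1 library gave 9 to 74 calls: 74 without mock replicate 1, 59 without exRNaseA replicate 1 and 29 without exRNaseA replicate 2. The lone sample was then assumed to vary like the other group. The replicate number as a block gave 55 calls and 0 Hnrnp, Ddx or Dhx genes. Whether same-numbered libraries share more than a number is not stated. Their differences from the group means correlated at -0.00 over all tested genes and 0.04 at 10 CPM or more. With 2 libraries per group these values cannot settle it. The causes of these moves were not tested.

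Under all 15 alternatives, and at an adjusted p of 0.1, 0 of the Hnrnp, Ddx and Dhx genes and 0 of the other RNA-handling genes were called. Over the 41 named genes the lowest adjusted p in any alternative was 0.289 (Ddx49, replicate block). The log2 change of Ddx49 ran from 0.21 without mock replicate 1 to 0.44 without mock replicate 2. The largest shift was at Dhx35, which moved to -0.61 with the effective length as an offset (adjusted p = 0.838, edgeR). The median log2 change of the genes was 0.00 in edgeR, and 0.0398 in limma on log2 TPM with a pseudocount of 0.5 and 0.0396 with 1. Leaving out 1 library gave medians of 0.00 to 0.01, and log2 ratios of summed TPM of 0.03 to 0.04 for Hnrnp and 0.01 to 0.04 for Ddx and Dhx. With 2 libraries per group, changes of the weakly expressed helicases were not bounded closely.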
